A study of Mus musculus with 12 samples.

Results

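Gata3, Lef1, Satb1, Bach2, Id3 and Tox are 6 nuclear regulators known from type 2 immunity and from early T cell development. The 6 genes were followed across 5 groups of cells of BALB/c and B6 mice. They were taken by name, with earlier results of these data known. Each had a probe set carrying its symbol alone. All 6 were among the 16667 genes tested, out of 22180 genes with such a probe set. The related factor Tcf7 was not analysed here. RNA was hybridised to 12 whole-transcript Affymetrix arrays, 1 per sample, in 5 groups that the labels define by strain and cell phenotype. The groups were iNKT17 cells of BALB/c mice (3 arrays), iNKT17 cells of B6 mice (2), gamma-delta 17 cells of B6 mice (2), ROR- cells of BALB/c mice (3) and ROR- cells of B6 mice (2). Neither a treatment nor an allele is named for any group. The labels name neither the organ, the age of the mice, the lineage of the ROR- cells nor the ROR gene that ROR- refers to. Since nothing in them ties replicates to different mice, the p-values here cover the spread of these arrays alone, which could be technical. The deposited design text states that iNKT cells of B6 and BALB/c mice were to be compared.

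Invariant natural killer T (iNKT) cells are lymphocytes whose nearly fixed receptor sees lipids on CD1d, and they leave the thymus already split into cytokine-producing subsets. The iNKT17 subset and the gamma-delta T cells called gamma-delta 17 make interleukin-17, whereas the type 2 subset makes interleukin-4 and carries high Gata3. Gata3 is a zinc-finger factor needed for T cell commitment and for type 2 cytokine genes. Lef1 is a high-mobility-group factor that partners with beta-catenin, Satb1 organises chromatin in thymocytes, and Bach2 is a repressor that holds back effector programmes. Id3 binds E proteins and keeps them off DNA, and Tox is a high-mobility-group factor used in thymic selection and in chronically stimulated T cells.

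The regions upstream of Lef1 and Satb1 are shown because iNKT17 cells of both strains had less of these transcripts than ROR- cells. They are RefSeq windows of the GRCm38.p6 build, each 250 bases long and ending just before the listed start, read along the gene's strand. RefSeq entries were matched by symbol for 5 of the 6 genes, and Tox had no entry in the table used. The windows of Lef1, Satb1 and Id3 border the RefSeq gene. Those of Bach2 and Gata3 precede a start that lies inside it, so they are not upstream of the whole gene and are not shown. Of the 4 windows listed for Lef1 and the 5 for Satb1, the one farthest upstream is printed. The windows are chr3:131110047-131110296 (+ strand) for Lef1 and chr17:51833291-51833540 (- strand) for Satb1. Capitals mark matches to 4 short motifs searched on both strands: AGATAA (bound by GATA factors), CTTTGA (TCF and LEF factors), CANNTG (E proteins) and TGANTCA (AP-1 and BACH factors).
Lef1: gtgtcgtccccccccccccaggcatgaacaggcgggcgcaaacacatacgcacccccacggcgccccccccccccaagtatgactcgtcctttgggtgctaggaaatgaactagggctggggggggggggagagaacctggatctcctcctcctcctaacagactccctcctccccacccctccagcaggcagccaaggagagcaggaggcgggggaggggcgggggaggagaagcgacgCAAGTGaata
Satb1: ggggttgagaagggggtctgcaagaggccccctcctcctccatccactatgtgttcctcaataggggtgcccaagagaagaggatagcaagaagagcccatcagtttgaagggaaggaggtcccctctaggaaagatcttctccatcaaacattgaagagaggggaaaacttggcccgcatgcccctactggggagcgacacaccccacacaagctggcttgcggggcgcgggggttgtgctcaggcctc

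The Lef1 window held 1 match to CANNTG, which begins 10 bases before the start and overlaps no other motif. The Satb1 and Id3 windows held none of the 4 motifs, which says only that these letters are not in these 250 bases. Among 32851 mouse windows of this length, 66.2% held CANNTG, 13.8% held CTTTGA, 9.99% held AGATAA and 6.75% held TGANTCA, so the match in Lef1 is of a common kind. Guanine and cytosine made up 66.4% of the Lef1 window and 58.0% of the Satb1 window.

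All values below are log2 levels as deposited, and a difference of 1 is a doubling. The 8 T cell markers averaged 9.80 to 10.56 on every array, and Cd3d, Cd3e, Cd3g and Thy1 were bright and did not pass between iNKT17 and ROR- cells. Among the other T cell markers, Zap70 and Lat rose, and the surface receptors Cd2 (by 3.07, limma adjusted p = 1.07e-07) and Cd5 (by 1.31, adjusted p = 8.33e-06) fell in iNKT17 cells together with the genes below. Cd2 was 5.25 to 5.79 on the BALB/c iNKT17 arrays, against 9.39 to 9.49 on the BALB/c ROR- arrays, and the part of these markers in the results was not tested. Of 13 measured type 17 markers, which include the interleukin-23 receptor Il23r, 11 were higher in iNKT17 than in ROR- cells. Tbx21, the type 1 master factor, fell by 2.78 ± 0.17 (SE, limma adjusted p = 8.16e-07) in the same comparison. A pair of arrays stood apart. On gamma-delta 17 replicate 1, all 7 neutrophil markers exceeded the dim level of 3.45 and summed to 43.9, against 23.7 on gamma-delta 17 replicate 2 and 22.95 to 24.01 on the iNKT17 and ROR- arrays. S100a8, a calcium-binding protein of neutrophils, was 9.30 on that array and at most 2.44 on every other. The 13 immature thymocyte markers summed to 70.6 there, against 53.8 on gamma-delta 17 replicate 2. The co-receptor gene Cd8b1 was 8.24 on that array against 4.30 on its partner, and Dntt, the enzyme that adds bases at receptor joins, was 5.52 against 3.46. Rag2 lay below the dim level there. The 5 gamma-delta markers summed to 33.7 on that array, against 36.4 on its partner. Cd163l1 was 9.48 against 10.99 and Sox13 was 6.71 against 7.62, while 5830411N06Rik differed by -1.16 and Etv5 by -0.065. Sox4 went the other way, at 4.98 on that array against 4.07 on its partner. Several type 1 and naive cell genes were higher on it, among them Nkg7 at 8.49 against 6.21, Klrd1 at 6.03 against 3.69 and Cd27 at 7.14 against 4.85. Not all naive genes were, as Il7r differed by -0.43. The 23 measured type 2 and iNKT2 genes summed to 142.5 on it, against 125.1 on its partner. The 13 type 17 markers averaged 8.41 on it, against 8.94 on its partner. On BALB/c ROR- replicate 2, the 13 type 17 markers averaged 6.47, against 5.32 on replicate 1 and 5.26 on replicate 3 of that group, and Il23r was 7.0 against 3.05 and 3.37. Without that array Lef1, Bach2, Satb1 and Gata3 kept their averaged calls described below, and in BALB/c mice Lef1 changed by -3.03 (adjusted p = 0.00165) and Bach2 by -1.17 (adjusted p = 0.0161). The gamma-delta 17 results of the 6 genes are given with and without each array where leaving it out moved them.

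**Figure D1:**
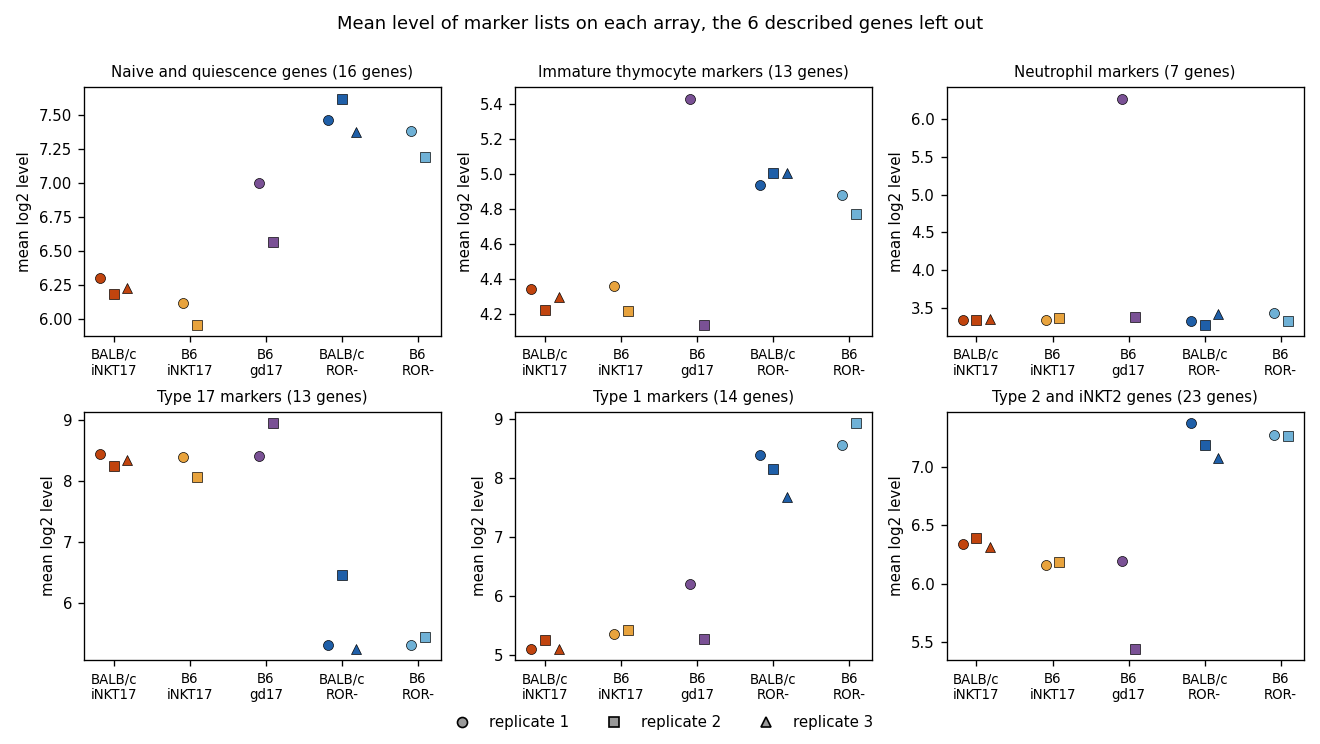
Mean log2 level of 6 marker lists on each array (points), by group, with the marker lists in separate panels. Gamma-delta 17 replicate 1 sits at 6.27 for neutrophil markers while its partner is at 3.38, and BALB/c ROR- replicate 2 sits at 6.47 for type 17 markers, above the other ROR- arrays.

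Lef1, Satb1, Bach2 and Gata3 fell in iNKT17 cells relative to ROR- cells, whereas Id3 and Tox did not pass the test. Averaged over the strains, 4 of the 6 genes fell and none rose past an adjusted p of 0.05, where 12.3% of all tested genes passed in either direction and 5.81% passed as lower. The median change of the 6 genes was -0.91, beside -0.004 over all tested genes. Since the 6 were chosen with earlier results of these data known, these figures describe them and do not test them as a set. Lef1, Satb1 and Bach2 were the 3 of the 6 whose iNKT17 arrays all lay below every ROR- array, where 9.73% of tested genes separated in either direction and 4.39% as lower. Adjusted p-values come from limma with Benjamini-Hochberg adjustment over all tested genes. Fewer cells that express a gene and less RNA of it per cell cannot be told apart in such bulk samples.

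**Figure D2:**
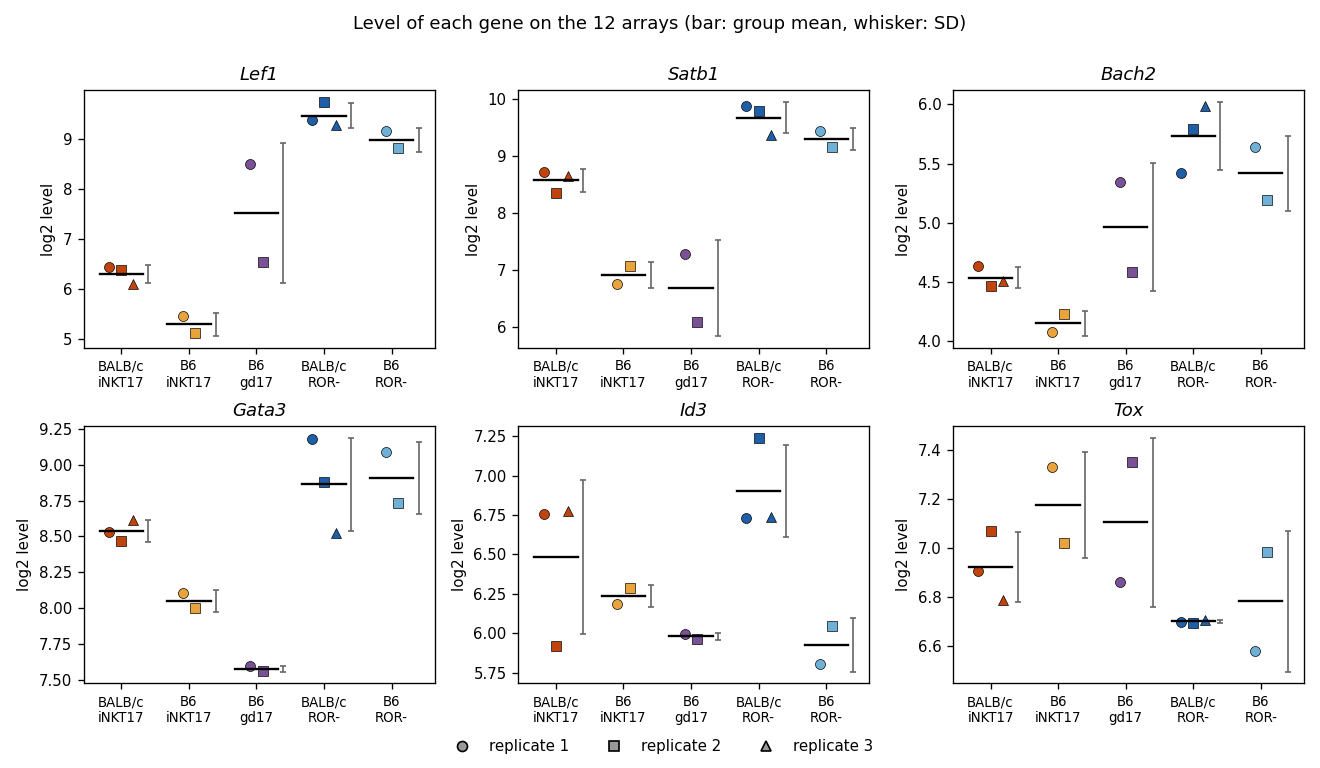
Log2 level of each of the 6 genes on every array (points), with the group mean (bar) and SD (whisker), 1 panel per gene and groups along the x axis. Lef1 shows the widest gap, with iNKT17 means of 6.30 (BALB/c) and 5.30 (B6) against ROR- means of 9.47 (BALB/c) and 8.98 (B6), and the gamma-delta 17 pair of Lef1 values is split, at 8.51 and 6.53.

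Lef1 had the largest change of the 6. Its level was 6.43, 6.38 and 6.09 in BALB/c iNKT17 cells, against 9.37, 9.74 and 9.28 in BALB/c ROR- cells. B6 iNKT17 cells had Lef1 at 5.46 and 5.13, against 9.15 and 8.81 in B6 ROR- cells. All 5 iNKT17 arrays therefore lay far below all 5 ROR- arrays. Lef1 fell by 3.43 ± 0.29 (SE) averaged over strains, 10.8-fold lower in iNKT17 cells (adjusted p = 1.03e-05). The fall was 8.96-fold in BALB/c mice (adjusted p = 2.43e-04) and 12.9-fold in B6 mice (adjusted p = 4.08e-04). The order from low to high was B6 iNKT17, BALB/c iNKT17, B6 gamma-delta 17, B6 ROR- and BALB/c ROR-, with no overlap between neighbouring groups. On BALB/c ROR- replicate 2, the array with raised type 17 markers, Lef1 was the highest of all at 9.74.

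Satb1 was also lower in iNKT17 cells of both strains. It was 8.72, 8.35 and 8.66 in BALB/c iNKT17 cells, against 9.88, 9.79 and 9.36 in BALB/c ROR- cells. B6 iNKT17 cells had 6.74 and 7.07, against 9.44 and 9.16 in B6 ROR- cells. BALB/c iNKT17 arrays thus lay between B6 iNKT17 arrays and every ROR- array, without overlap. Satb1 fell by 1.75 ± 0.21 averaged over strains (3.36-fold lower, adjusted p = 1.33e-04). The fall was 2.15-fold in BALB/c mice (adjusted p = 0.0243) and 5.26-fold in B6 mice (adjusted p = 7.21e-04). Leaving out any of 5 arrays ended the BALB/c call: BALB/c iNKT17 replicate 1 (adjusted p = 0.0513), 2 (0.0913) or 3 (0.0684), and BALB/c ROR- replicate 1 (0.0759) or 2 (0.0779). The change then lay between -1.17 and -0.99.

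Bach2 was a weak signal, between 4.08 and 5.99 on the iNKT17 and ROR- arrays. Both B6 iNKT17 arrays lay under 4.40, the 50th percentile of the 1-symbol probe set values, so folds there are measured against weak signal. It was 4.64, 4.47 and 4.51 in BALB/c iNKT17 cells, against 5.42, 5.79 and 5.99 in BALB/c ROR- cells. In B6 mice it was 4.08 and 4.23 in iNKT17 cells, against 5.64 and 5.19 in ROR- cells. The iNKT17 and ROR- arrays did not overlap. Bach2 fell by 1.23 ± 0.16 averaged over strains (2.35-fold lower, adjusted p = 3.08e-04), and by similar amounts in BALB/c mice (1.19 ± 0.21, adjusted p = 0.00381) and in B6 mice (1.27 ± 0.25, adjusted p = 0.0100). The B6 call did not hold without B6 ROR- replicate 1 (a change of -1.04, adjusted p = 0.123), B6 iNKT17 replicate 1 (-1.19, 0.0782) or B6 iNKT17 replicate 2 (-1.34, 0.0517).

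Gata3 fell by less, and several settings ended its calls. It was 8.53, 8.46 and 8.62 in BALB/c iNKT17 cells, against 9.18, 8.88 and 8.53 in BALB/c ROR- cells, so the ranges met. Its B6 levels were 8.11 and 8.0 in iNKT17 cells, against 9.09 and 8.73 in ROR- cells, with no overlap. Gata3 fell by 0.59 ± 0.13 averaged over strains (1.51-fold lower, adjusted p = 0.00819). In B6 mice it fell by 0.85 ± 0.19 (adjusted p = 0.0218), and in BALB/c mice the change was -0.33 ± 0.16 (adjusted p = 0.314). The averaged call did not hold without B6 ROR- replicate 1 (-0.50, adjusted p = 0.0527) or on the gene's other probe set (-0.54, adjusted p = 0.0541). The B6 call did not hold without B6 ROR- replicate 1 (adjusted p = 0.221), B6 iNKT17 replicate 1 (0.0820) or 2 (0.151), or on the other probe set (0.0627). On the main probe set the groups ran, from low to high, B6 gamma-delta 17, B6 iNKT17, BALB/c iNKT17, BALB/c ROR- and B6 ROR-, where BALB/c ROR- overlapped both BALB/c iNKT17 and B6 ROR-.

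Within BALB/c mice 3 of the 6 genes passed, all lower in iNKT17 cells, where 6.97% of tested genes passed and 2.91% passed as lower. Within B6 mice 4 passed, all lower, where 5.99% passed and 3.16% passed as lower.

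Id3 did not pass in either strain. It was 6.75, 5.92 and 6.77 in BALB/c iNKT17 cells, against 6.73, 7.24 and 6.74 in BALB/c ROR- cells, and the ranges overlapped. B6 levels were 6.19 and 6.29 in iNKT17 cells, against 5.81 and 6.05 in ROR- cells, which did not overlap. The change was -0.42 in BALB/c mice (95% interval -0.90 to 0.06, adjusted p = 0.354) and 0.31 in B6 mice (95% interval -0.27 to 0.89, adjusted p = 0.688). Averaged over strains it was -0.06 (95% interval -0.43 to 0.32, adjusted p = 0.900). BALB/c iNKT17 replicate 2 was the lowest of the BALB/c arrays, and without it the averaged change was 0.085.

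Tox had small positive changes that did not pass. It was 6.90, 7.07 and 6.79 in BALB/c iNKT17 cells, against 6.70, 6.69 and 6.71 in BALB/c ROR- cells. In B6 mice it was 7.33 and 7.02 in iNKT17 cells, against 6.58 and 6.98 in ROR- cells. The iNKT17 arrays lay above the ROR- arrays of their own strain in both cases. In B6 mice Id3 and Tox thus separated without overlap although neither passed. With groups this small, separation alone is weak evidence. The share of all tested genes that separate is given here for the averaged comparison only. The averaged Tox change was 0.31 (95% interval 0.03 to 0.58), with an adjusted p of 0.154. The 5 groups spanned only 6.70 to 7.17 in their means, and each overlapped its neighbour in the order.

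**Figure D3:**
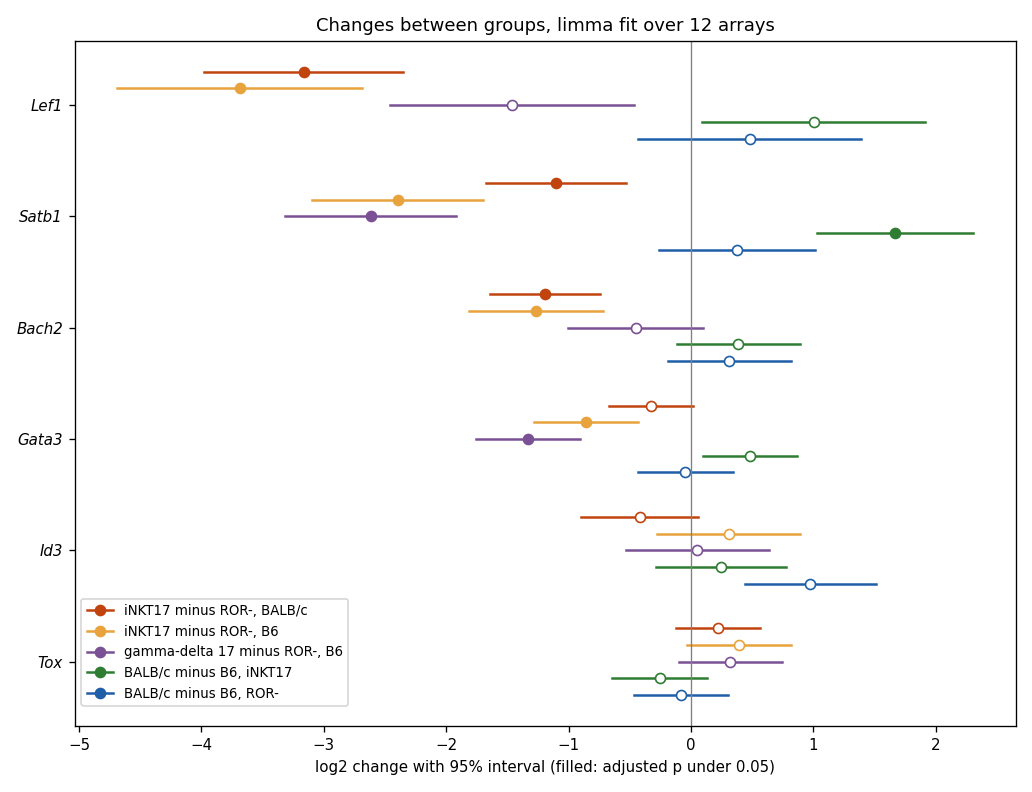
Log2 change of the 6 genes in 5 comparisons (x axis, first group minus second), with 95% intervals from limma. Filled points have an adjusted p under 0.05: Lef1, Satb1, Bach2 and Gata3 sit left of 0 in B6 iNKT17 minus ROR-, and Satb1 sits right of 0 in BALB/c minus B6 iNKT17.

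In the strain comparison that the design text names, Satb1 passed. In iNKT17 cells it was 8.57 ± 0.20 in BALB/c mice (SD, n = 3) and 6.91 ± 0.23 in B6 mice (SD, n = 2). That is a difference of 1.67 ± 0.29 (SE), 3.18-fold higher in BALB/c, with a limma adjusted p of 0.0149 from the fit across all genes. It was the only 1 of the 6 genes to pass, where 1.48% of tested genes passed and 0.672% passed as higher. The call did not hold without BALB/c iNKT17 replicate 1 (adjusted p = 0.0625) or 3 (0.0656), or without B6 iNKT17 replicate 1 (0.118) or 2 (0.0928), while the difference stayed between 1.51 and 1.83. Lef1 was 1.01 ± 0.42 higher in BALB/c iNKT17 cells without passing (adjusted p = 0.331), although its BALB/c and B6 arrays did not overlap. It passed when gamma-delta 17 replicate 1 or replicate 2 was left out (adjusted p = 0.0259 each) and when only the iNKT17 arrays were fitted (adjusted p = 0.0470). Gata3 differed by 0.48 (95% interval 0.10 to 0.87, adjusted p = 0.260), and its arrays did not overlap either. Of the 6 genes, 4 separated without overlap here and 1 passed. The share of all tested genes that separate in this comparison is not given here. Bach2 (0.39), Id3 (0.25) and Tox (-0.25) had adjusted p-values of 0.551 to 0.755.

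In ROR- cells none of the 6 genes passed between strains, where 1.22% of tested genes passed. At an unadjusted limma p under 0.05 the count was 1, Id3. Id3 was 6.73, 7.24 and 6.74 in BALB/c ROR- cells, against 5.81 and 6.05 in B6 ROR- cells, so every BALB/c array was higher. The difference was 0.98 ± 0.24 (SE, adjusted p = 0.0950), and it passed without BALB/c iNKT17 replicate 2 (adjusted p = 0.0167). Satb1 differed by 0.37 in ROR- cells (95% interval -0.26 to 1.01, adjusted p = 0.653).

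Whether the iNKT17 to ROR- change itself differed between strains was tested as an interaction. None of the 6 genes passed, where 0.084% of tested genes did, and at an unadjusted limma p under 0.05 the count was 1. That gene was Satb1, whose change was 1.29 ± 0.41 less negative in BALB/c mice (95% interval 0.39 to 2.20, adjusted p = 0.812). The intervals of the other differences were -0.76 to 1.81 for Lef1, -0.02 to 1.08 for Gata3, -0.64 to 0.78 for Bach2, -1.48 to 0.03 for Id3 and -0.72 to 0.37 for Tox.

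B6 gamma-delta 17 cells had low Satb1 and low Gata3. Satb1 was 7.28 and 6.09 in gamma-delta 17 cells, against 9.44 and 9.16 in B6 ROR- cells, a fall of 2.62 ± 0.32 (6.14-fold lower, adjusted p = 3.98e-04). Gata3 was 7.59 and 7.56 in gamma-delta 17 cells, against 9.09 and 8.73 in B6 ROR- cells, a fall of 1.33 ± 0.19 (2.51-fold lower, adjusted p = 0.00136). These 2 of the 6 genes passed, both lower, where 6.02% of tested genes passed and 3.41% passed as lower. Both calls held when either gamma-delta 17 array was left out, with Satb1 at -3.22 without replicate 1 and -2.02 without replicate 2, and Gata3 at -1.34 and -1.31. On the other Gata3 probe set the change was -0.998 (adjusted p = 0.0396).

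Lef1 in gamma-delta 17 cells depended on which array was read. It was 8.51 on replicate 1 and 6.53 on replicate 2, against 9.15 and 8.81 in B6 ROR- cells. The averaged fall of 1.46 ± 0.46 did not pass (adjusted p = 0.0923). Without replicate 1, the array with neutrophil, Cd8b1 and Dntt signal, more type 1 and naive signal and less Cd163l1, the fall was 2.45 (adjusted p = 1.93e-04). Without replicate 2 it was 0.47 (adjusted p = 0.382). The lone array is then assumed to vary like the other groups. Bach2 was 5.35 on replicate 1 and 4.58 on replicate 2, against 5.64 and 5.19 in B6 ROR- cells. Its change was -0.45 (adjusted p = 0.392), -0.83 without replicate 1 (adjusted p = 0.109) and -0.07 without replicate 2 (adjusted p = 0.939).

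The split between the gamma-delta 17 arrays was uneven over the 6 genes. Replicate 1 minus replicate 2 was 1.98 for Lef1, the rank of 36 by size among 16667 genes, 1.20 for Satb1 (rank 131) and 0.76 for Bach2 (rank 485). Gata3 and Id3 differed by only 0.03 and 0.04, and Tox by -0.49. The part of the neutrophil, thymocyte, type 1, type 2, type 17, naive and gamma-delta markers in these values was not tested. Id3 was 6.0 and 5.96 in gamma-delta 17 cells, close to the B6 ROR- arrays at 5.81 and 6.05 (change 0.05, 95% interval -0.53 to 0.64). Tox was 6.86 and 7.35, against 6.58 and 6.98 in B6 ROR- cells (change 0.32, 95% interval -0.10 to 0.75). The Tox change was 0.57 without gamma-delta 17 replicate 1 (adjusted p = 0.223) and 0.078 without replicate 2 (adjusted p = 0.913).

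Between iNKT17 and gamma-delta 17 cells of B6 mice none of the 6 genes passed, where 0.168% of tested genes did. At an unadjusted limma p under 0.05 the count was 3: Lef1, Bach2 and Gata3. Lef1 was lower in iNKT17 cells by 2.23 ± 0.46 (adjusted p = 0.109), with both iNKT17 arrays (5.46 and 5.13) under both gamma-delta 17 arrays (8.51 and 6.53). Without gamma-delta 17 replicate 1 the change was -1.24 (adjusted p = 0.0859), and without replicate 2 it was -3.21 (adjusted p = 1.94e-04). Bach2 changed by -0.82 (95% interval -1.37 to -0.26, adjusted p = 0.372), with -0.43 without gamma-delta 17 replicate 1 (adjusted p = 0.998) and -1.20 without replicate 2 (adjusted p = 0.103). Gata3 changed by 0.47 (95% interval 0.05 to 0.90, adjusted p = 0.531), but by 0.094 on its other probe set (adjusted p = 0.933), where the B6 iNKT17 arrays (6.17 and 6.10) lay between the gamma-delta 17 arrays (6.32 and 5.76). Satb1 changed by 0.22 (95% interval -0.48 to 0.92), 0.82 without gamma-delta 17 replicate 1 (adjusted p = 0.506) and -0.38 without replicate 2 (adjusted p = 0.658). Tox changed by 0.07, with -0.17 without gamma-delta 17 replicate 1 and 0.31 without replicate 2. These comparisons in B6 mice share arrays: iNKT17 and gamma-delta 17 cells were each set against the same B6 ROR- arrays.

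Family members and partners of the 6 genes were read in the averaged iNKT17 to ROR- comparison, in lists chosen with results of these data known. Among all tested genes 12.3% passed in this comparison and 5.81% passed as lower. The list counts include the members of the 6 themselves. Among 8 tested genes of the GATA family and its partners, 3 fell and none rose. They were Zfpm1 (FOG1, a GATA cofactor) by 1.17 ± 0.10 (adjusted p = 9.37e-06), Gata3 itself and Gata1 by 0.52 ± 0.10 (adjusted p = 0.00608). The Gata1 mean was 3.30 in iNKT17 cells, below the dim level, and 3.82 in ROR- cells. Its arrays ran from 3.14 to 3.48 in iNKT17 cells and from 3.53 to 4.17 in ROR- cells. The Gata1 fall is therefore measured against dim signal. Gata2 changed by -0.01 (adjusted p = 0.977), Gata4 by -0.09 and Gata5 by -0.11. Of 15 tested TCF/LEF and Wnt nuclear partners, 4 fell and none rose. Beside Lef1 these were the co-repressor Tle4 (-1.26 ± 0.11, adjusted p = 1.02e-05), the beta-catenin cofactor Bcl9l (-0.72 ± 0.14, adjusted p = 0.00418) and Tcf7l1 (-0.43 ± 0.12, adjusted p = 0.0345). The Tcf7l1 call was lost in 9 of 20 alternative settings, with adjusted p up to 0.143. Ctnnb1, which encodes beta-catenin, changed by -0.08 (adjusted p = 0.670), and the Wnt target Axin2 by -0.14 (adjusted p = 0.564).

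The relatives of Bach2, Satb1, Id3 and Tox gave calls in both directions, beside the same 12.3% of all tested genes passing and 5.81% passing as lower. Of 9 tested BACH, small MAF and related genes, 2 rose and 2 fell, Bach2 among those that fell. Prdm1, which encodes the effector factor Blimp-1, rose by 0.54 ± 0.10 (adjusted p = 0.00267) and the small MAF gene Mafg rose by 0.46 ± 0.12 (adjusted p = 0.0286, lost in 4 of 20 settings). Maff fell by 0.66 ± 0.13 (adjusted p = 0.00518), and Bach1 changed by 0.20 (adjusted p = 0.433). Of 3 tested SATB and CUT genes, Satb1 fell and Cux1 rose by 0.43 ± 0.10 (adjusted p = 0.0119, lost in 2 settings). Of 7 tested E protein and Id genes, only Id2 passed, lower by 0.33 ± 0.09 (adjusted p = 0.0423), and it was lost in 10 of 20 settings with adjusted p up to 0.187. Id1 changed by 0.03 and Id4 by -0.01. Of 4 TOX genes only Tox2 passed, higher by 0.37 ± 0.11 (adjusted p = 0.0442), and it was lost in 11 of 20 settings with adjusted p up to 0.164. Tox3 changed by -0.08 and Tox4 by -0.07.

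Among 28 other early T-lineage and T cell regulators, 8 fell and 3 rose, where 12.3% of all tested genes passed and 5.81% passed as lower. Egr3, induced by receptor signalling, fell by 1.71 ± 0.15 (adjusted p = 1.49e-05). Runx1, a partner of core-binding factor beta, rose by 0.77 ± 0.10 (adjusted p = 3.34e-04), Ikzf1 (Ikaros) fell by 0.76 ± 0.10 (adjusted p = 2.26e-04) and Ets2 fell by 0.86 ± 0.14 (adjusted p = 0.00150). Zbtb16, which encodes the iNKT factor PLZF, changed by -0.37 ± 0.13 without passing (adjusted p = 0.0904). The list's median was -0.16, beside -0.004 over all tested genes.

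Several type 2 and naive cell genes fell in iNKT17 cells. Of 21 tested type 2 and iNKT2 genes, 11 fell and 1 rose, with a median of -0.68, beside the same 5.81% of all tested genes passing as lower. The type 2 cytokine genes differed: Il4 fell by 1.17 ± 0.13 (adjusted p = 9.75e-05), while Il13 changed by -0.53 (adjusted p = 0.425; 0.02 in BALB/c mice) and Il5 by 0.40 (adjusted p = 0.265). Plac8 fell by 4.49 ± 0.42 (adjusted p = 1.95e-05), the receptor Slamf6 by 3.99 ± 0.38 (adjusted p = 2.31e-05), the folate receptor family member Izumo1r by 3.20 ± 0.17 (adjusted p = 2.62e-07) and the interleukin-6 receptor Il6ra by 2.13 ± 0.24 (adjusted p = 1.07e-04). Slamf6, a SLAM-family receptor, is not restricted to type 2 cells, and 12 of 14 type 1 markers also fell in this comparison. Of 16 tested naive and quiescence genes, 9 fell and 1 rose, with a median of -0.94. The egress receptor S1pr1 fell by 4.04 ± 0.27 (adjusted p = 1.52e-06), the costimulatory receptor Cd27 by 4.02 ± 0.33 (adjusted p = 7.53e-06), Igfbp4 by 2.70 ± 0.22 (adjusted p = 5.54e-06) and the quiescence factor Klf3 by 2.18 ± 0.11 (adjusted p = 2.20e-07).

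In gamma-delta 17 against ROR- cells of B6 mice, 11 of the 21 type 2 genes fell and none rose, where 6.02% of all tested genes passed and 3.41% passed as lower. Zfpm1 fell by 1.20 ± 0.15 (adjusted p = 5.76e-04). Tle4 fell by 1.03 ± 0.17 (adjusted p = 0.00272), and Cux1 rose by 0.79 ± 0.15 (adjusted p = 0.00713, lost in 3 of 20 settings). The count of lower type 2 genes was 11 without gamma-delta 17 replicate 1 and 8 without replicate 2. Klf3 was 0.74 ± 0.17 higher in gamma-delta 17 cells (adjusted p = 0.0275, lost in 4 of 20 settings). Of the 16 naive and quiescence genes, 4 fell and 2 rose. Between BALB/c and B6 iNKT17 cells, Zbtb16 was 8.99 ± 0.09 in BALB/c mice and 8.01 ± 0.16 in B6 mice (SD, n = 3 and n = 2), a difference of 0.98 (limma adjusted p = 0.0190, lost in 4 of 20 settings). The type 2 list had 1 gene higher in BALB/c iNKT17 cells, Ccr4. The TCF/LEF, GATA, BACH, E protein and TOX lists had none in either direction. Of all tested genes, 1.48% passed between these groups and 0.672% passed as higher. At such a share, lists this short can hold no call, so their counts are not a result about them.

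**Figure D4:**
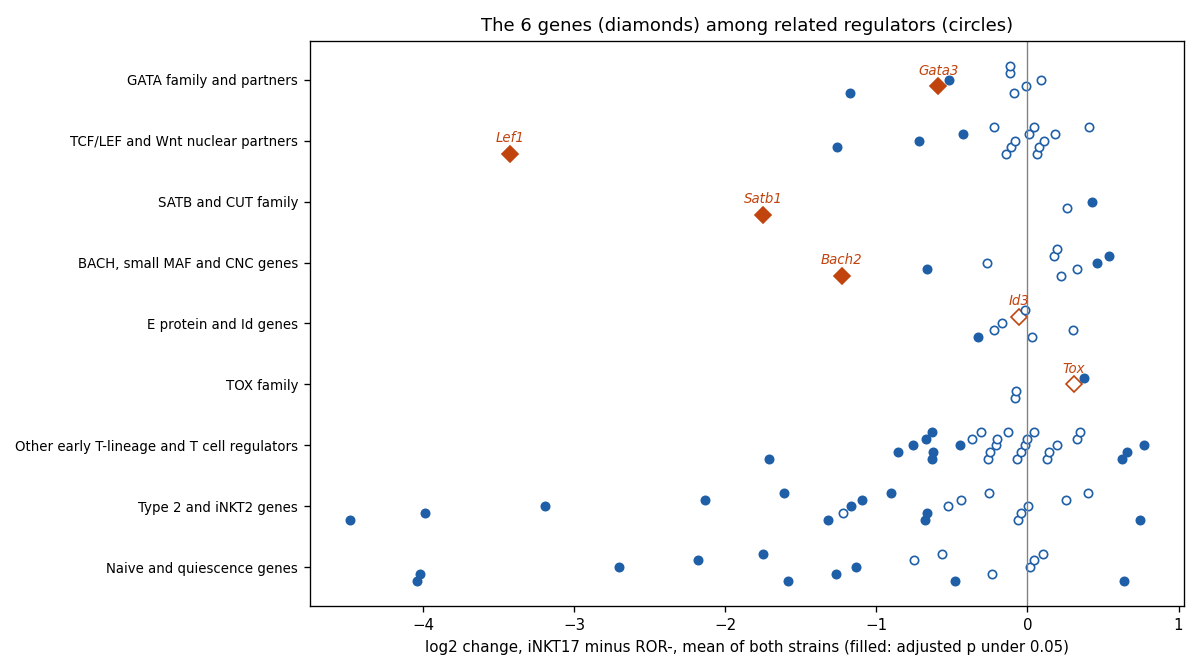
Log2 change in iNKT17 minus ROR- cells, averaged over strains (x axis), of the tested genes of each related list (rows); diamonds mark Lef1, Satb1, Bach2, Gata3, Id3 and Tox, and filled points have an adjusted p under 0.05. Lef1 at -3.43 lies far from the other TCF/LEF and Wnt genes, whose next lowest is Tle4 at -1.26.

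The genes whose levels ran most like those of the 6 were ranked by Pearson r over the 12 arrays, as a description, since all genes share these arrays and their group structure. For Lef1 they were Cmah (r = 0.982), Ms4a6b (0.972) and S1pr1 (0.967). S1pr1 averaged 4.81 in BALB/c iNKT17, 4.03 in B6 iNKT17, 7.01 in gamma-delta 17, 8.64 in BALB/c ROR- and 8.29 in B6 ROR- cells, the same group order as Lef1. For Satb1 they were Dtd1 (0.983), the signalling protease Malt1 (0.973) and the integrin Itgb3 (0.972). Malt1 averaged 8.03 in BALB/c iNKT17 and 6.91 in B6 iNKT17 cells, against 9.08 in BALB/c ROR- and 8.69 in B6 ROR- cells. For Gata3 they were the chemokine receptor Ccr4 (0.979), Luc7l (0.977) and Ubxn11 (0.973). Ccr4 averaged 7.16 in BALB/c iNKT17, 5.81 in B6 iNKT17 and 4.99 in gamma-delta 17 cells, against 7.59 in BALB/c ROR- and 7.58 in B6 ROR- cells.

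Bach2 ran most like the kinase gene Prkcq (0.975), Lef1 (0.965) and Rbm25 (0.953). Id3 had looser matches in Pbx2 (0.934), Trrap (0.889) and Atg14 (0.887), and so did Tox in Rtn4 (0.879), Wdr44 (0.866) and Magee1 (0.859). Among the 6 genes themselves, Lef1 with Bach2 (0.965) and Gata3 with Satb1 (0.923) had the highest r. Tox ran opposite to Satb1 (-0.845), Bach2 (-0.768), Lef1 (-0.708) and Gata3 (-0.703).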

How the data were processed

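Log2 values of 41345 probe sets on 12 arrays were taken as the authors deposited them. The submitters' processing notes list oligo, an R package. Its version, the background, normalization and summary methods and the log base (taken as 2) are not given here by any source. Per the labels' protocols RNA came from frozen tissue, although the labels name cells.

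Of the probe sets, 23521 carried 1 symbol in the platform annotation, 1814 several and 16010 none. The brightest 1-symbol probe set stood for a gene; Gata3 had another. Genes above 3.45, the 30th percentile, on at least 2 arrays were tested (16667), and 5513 were set aside.

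A group-means model over all 5 groups was fitted with limma 3.58.1 (R 4.3.3; 7 residual degrees of freedom), with Benjamini-Hochberg adjustment, a threshold of 0.05 and 8 comparisons, after tests on simulated data. The number of arrays limits the precision. Array medians lay between 4.10 and 4.30. The text names the 6 genes, the 3 most like each by Pearson r, family members, and up to 4 passing genes per related list with the largest averaged change; a few more were added after their values were seen. The 6 genes and all lists were chosen with earlier results of these data known. Alternatives covered scaling, dim-gene filter, variance prior, array weights, probe set, replicate block, fitted arrays and leaving out each array.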

Additional observations from a re-analysis of the deposited data

How the results depend on the processing

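Over 22 alternative settings and 48 gene-by-comparison results, 931 of 976 recomputed values kept direction and side of the threshold, 18 lost a call, 6 gained one and 21 changed sign, all of the last kind without a call. Calls lost or gained are given with each gene above. The Lef1 difference between BALB/c and B6 iNKT17 cells stayed at 1.01 without either gamma-delta 17 array, while its SE went from 0.42 to 0.19. The Id3 difference in ROR- cells stayed at 0.98 without BALB/c iNKT17 replicate 2, while its SE went from 0.24 to 0.17. Those arrays are outside the groups compared, so only the shared estimate of the spread changed. The cause of the other lost or gained calls was not tested. Of all tested genes, 14 passed for the strain difference, against 8 after quantile normalization, 9 with arrays centred on their medians and 6 with the replicate number as a block. The replicate block changed no call of the 6 genes and turned Gata3 in BALB/c minus B6 ROR- cells to 0.018. Whether replicate numbers pair samples could not be decided. Among same-number pairs of arrays, 8 of 21 had r over 0.1 (range -0.46 to 0.47), against 13 of 36 other pairs (range -0.47 to 0.52). In a group of 2 arrays the deviations from the group mean mirror each other, which fixes many of these r values as opposites. Array weights gave 549 genes for BALB/c minus B6 iNKT17, against 247. Fitting only the arrays compared gave 2 genes for iNKT17 minus gamma-delta 17 (against 28), 82 for BALB/c minus B6 ROR- (against 203) and 2 of the 6 genes for BALB/c minus B6 iNKT17, Lef1 joining Satb1. Fewer arrays also leave fewer degrees of freedom. Quantile normalization turned Bach2 for the strain difference to -0.033, Tox in iNKT17 minus gamma-delta 17 to -0.046, and in BALB/c minus B6 ROR- cells Gata3 to 0.033 and Tox to 0.0018. Array weights turned Gata3 there to 0.027, and centring turned Id3 in gamma-delta 17 minus ROR- to -0.039.

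Leaving out 1 array at a time, genes passing ranged from 1341 (without B6 ROR- replicate 1) to 2051 for the averaged iNKT17 minus ROR- comparison, 742 (without BALB/c iNKT17 replicate 3) to 1150 in BALB/c, 492 (without B6 ROR- replicate 1) to 1058 in B6, 0 to 15 for the strain difference, 530 (without B6 ROR- replicate 1) to 1151 for gamma-delta 17 minus ROR-, 5 to 63 for iNKT17 minus gamma-delta 17, 77 (without B6 iNKT17 replicate 2) to 530 (without BALB/c iNKT17 replicate 2) for BALB/c minus B6 iNKT17 and 68 (without B6 ROR- replicate 2) to 259 for BALB/c minus B6 ROR-. Of the 6 genes, 2 to 4 passed in B6 iNKT17 minus ROR-, 0 to 1 in iNKT17 minus gamma-delta 17, 0 to 2 in BALB/c minus B6 iNKT17 and 0 to 1 in BALB/c minus B6 ROR-. Uncalled changes that crossed 0 ranged from -0.13 to 0.085 (Id3, averaged), -0.38 to 0.031 (Tox, strain difference), -0.15 to 0.30 (Bach2, strain difference), -0.068 to 0.17 (Id3, gamma-delta 17 minus ROR-), -0.17 to 0.31 (Tox, iNKT17 minus gamma-delta 17), -0.38 to 0.82 (Satb1, iNKT17 minus gamma-delta 17), -0.22 to 0.13 (Gata3, BALB/c minus B6 ROR-) and -0.29 to 0.12 (Tox, BALB/c minus B6 ROR-). Counts over the related lists moved by over 1.5 times in 101 of 1080 recomputed counts; these settings were added after the data were seen. Precision is limited by groups of 2 or 3 arrays and, for Bach2, by a signal not far above the dim level.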
